A study of Homo sapiens with 48 samples.

Results

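BEAS-2B cells that had received vehicle alone were compared 2 h and 1 h after vehicle was added. The comparison used 8 of the 48 arrays of the series, the 4 titled as vehicle-treated at 2 h and the 4 at 1 h, matched by the replicate number in their titles. The 8 vehicle arrays of 6 h and 18 h also entered the fit, for its spread and replicate effects. All 41091 of 54675 probe sets that carry exactly 1 gene symbol were compared, and these stand for 19775 genes. No drug differs between the groups, so the comparison answers which transcripts moved within the early hours of a vehicle culture.

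BEAS-2B is an established human bronchial epithelial line, immortalised with viral genes, and is grown as a monolayer. All cells had been grown in keratinocyte serum-free medium with epidermal growth factor and pituitary extract and then held without these supplements before vehicle or drug. The other groups were the same line with vehicle for 6 or 18 h, with indacaterol plus GSK256066 (Ind/GSK, each at 10 nM) or with GS-5759 (10 nM), each at 1, 2, 6 and 18 h with 4 replicates. Indacaterol is a long-acting agonist of the β2-adrenoceptor, GSK256066 inhibits phosphodiesterase 4, and GS-5759 is a single molecule that does both. The labels do not say that the replicates were separate cultures, so p-values measure the spread between these arrays. Arrays from before vehicle were not analysed here, and the labels name no handling step at the start of the time course, so no level at 1 h can be set against a starting level.

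Immediate early genes are transcribed within minutes of a stimulus such as fresh growth factor, stretch or a change of medium, from factors that already sit in the cell. Serum response factor with its ternary complex partners, CREB and NF-kB start them, and their mRNAs decay fast, so their levels rise and fall within a short time. EGR1, FOS and JUN encode transcription factors of this class, and they switch on a second layer of genes that includes their own brakes. NAB2, for example, is a target of EGR1 and encodes a corepressor that binds EGR1 protein.

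Between 1 and 2 h the largest changes in the vehicle cultures were falls of EGR1 and FOS, both immediate early genes. EGR1 fell 2.84-fold, FOS 3.20-fold, CCN2 2.01-fold, SGK1, RHOB and TXNIP by 1.76-fold to 1.84-fold, and IER2 and JUN by 1.64-fold and 1.59-fold. NAB2 rose 1.64-fold. Each of these 9 genes passed the threshold without any 1 of the 8 arrays and under each scaling and offset tried. Without the replicate number as a block, EGR1, CCN2, IER2 and NAB2 still passed. FOS, TXNIP, RHOB, SGK1 and JUN then did not (limma adjusted p from 0.0974 to 0.196). With the 8 arrays alone in the fit, 5 probe sets passed in all. Some called rises were larger than that of NAB2, most from dim probe sets. Among them were CALCRL at 1.99-fold and SYN2 at 2.46-fold in a minor probe set. Folds and log2 differences are on the log2(signal + 16) scale, which understates changes of dim probe sets, with n = 4 arrays per group.

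Promoter sequences are shown for 3 of these genes because each carries a known regulatory motif of the early response, EGR1 for serum response factor, NAB2 for EGR proteins and CCN2 for TEAD factors, the DNA-binding partners of YAP. They are the 250 bases upstream of the RefSeq start in GRCh38.p14, 5′ to 3′ on the gene's strand, with motif matches in capitals. The EGR1 stretch lies at chr5:138465229-138465478 on the plus strand, that of NAB2 at chr12:57088864-57089113 on the plus strand and that of CCN2 at chr6:131951373-131951622 on the minus strand.
EGR1: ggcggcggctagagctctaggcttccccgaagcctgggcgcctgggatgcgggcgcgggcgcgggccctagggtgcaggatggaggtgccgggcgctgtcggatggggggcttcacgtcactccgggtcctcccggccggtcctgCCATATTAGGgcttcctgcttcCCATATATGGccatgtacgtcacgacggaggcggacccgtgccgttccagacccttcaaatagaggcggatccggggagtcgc
NAB2: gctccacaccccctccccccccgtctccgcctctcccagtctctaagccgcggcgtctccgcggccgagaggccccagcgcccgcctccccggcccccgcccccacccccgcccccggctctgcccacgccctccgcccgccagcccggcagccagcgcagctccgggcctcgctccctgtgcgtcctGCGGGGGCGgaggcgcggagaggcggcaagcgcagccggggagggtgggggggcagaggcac
CCN2: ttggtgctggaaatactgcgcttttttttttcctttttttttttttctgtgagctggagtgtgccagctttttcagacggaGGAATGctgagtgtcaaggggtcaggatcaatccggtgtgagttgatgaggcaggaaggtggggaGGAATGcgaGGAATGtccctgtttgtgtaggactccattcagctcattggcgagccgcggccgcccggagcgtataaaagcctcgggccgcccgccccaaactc
The capitals in EGR1 mark 2 CArG boxes, the element bound by serum response factor, 105 to 96 and 83 to 74 bases before the start. Of 15384 promoters of the same length, matched to the 19775 genes by symbol, 1.14% held at least 1 CArG box and 0.0325% held at least 2, with both strands searched. The capitals in NAB2 mark an EGR site (GCGGGGGCG here, with GCGTGGGCG also searched), found in 7.42% of promoters. Those in CCN2 mark 3 copies of GGAATG, the TEAD site, which was found at least once in 10.3% of promoters and at least 3 times in 0.0715%. The last of the 3 copies overlaps a match to the NF-kB site on the other strand. Among genes that fell (adjusted p under 0.05, brightest probe set), 0.56% of promoters held a CArG box. Of 10 promoters of fallen immediate early factors, 1 held it, that of EGR1. EGR sites were in 11.2% of promoters of genes that fell and 8.89% of those that rose, and TEAD sites in 8.96% and 10%. Whether a motif goes with the changes was not tested. A match describes letters in this window and is neither a bound site nor a cause of any change here.

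The arrays were first checked for features that could move with time. Signals of 4 named epithelial and mesenchymal markers were high in all 8 arrays, with medians of 5022 for KRT8, 8502 for KRT18, 11306 for VIM and 9711 for COL1A1, whereas EPCAM (106) and CDH1 (334) were low. The epithelial marker KRT19 had a median of 37.1, with arrays from 0.00756 to 3959, and the mesenchymal marker DCN a median of 129. Of markers of other cell types, PTPRC (leukocytes), CDH5 (endothelium) and FOXJ1 (ciliated cells) were dim, with medians of 25.3, 14.5 and 15.4, whereas the endothelial marker PECAM1 had a median of 542. The summed signal of each of these marker lists overlapped between 1 h and 2 h, that of the endothelial list only at its edge, from 837 to 979 and from 972 to 1100. The replicate 3 arrays stood apart at both times through KRT14, a basal keratin, whose signal reached 190711 against a median of 26.7, and KRT5 reached 32475. The Vehicle 2h replicate 1 array stood apart in its brightness. Its 75th percentile signal was 691, against 829 in Vehicle 1h replicate 1, and in all 4 pairs this percentile was lower at 2 h (mean log2 difference −0.11, exact sign-flip test p = 0.13, the smallest that 4 pairs allow). The 3′ to 5′ signal ratios of the GAPDH and ACTB controls differed by mean log2 differences of 0.03 and 0.05, each higher at 2 h in 3 of 4 pairs (exact sign-flip test p = 0.25 for both). The part of these array differences in the results was not tested.

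Over all probe sets, 1008 fell (2.45%) and 194 rose (0.472%), 1202 in all (2.93%), at an adjusted p under 0.05, by limma with the replicate number as a block and Benjamini-Hochberg adjustment. By the brightest probe set of each gene, 434 genes fell (2.19%) and 111 rose (0.561%). Changes were small, with a median of −0.36 among the probe sets that fell and 0.44 among those that rose, and 8 of the 1202 reached 2-fold. All 4 arrays at 2 h lay below all 4 at 1 h in 2002 probe sets (4.87%), and above them in 855 (2.08%). Without the block, 11 probe sets were called, 10 lower and 1 higher: EGR1 with 3 probe sets, CCN2, IER2, ZBTB24, ZNF404, CDKN2B, RTN2 and FRAT1 lower, and NAB2 higher. The split between rises and falls depended on scaling. Centring each array on its 75th percentile added 0.11 to every log2 difference and gave 205 lower and 401 higher, and quantile normalization gave 388 lower and 178 higher. Single arrays also set the count. It was 64 without Vehicle 1h replicate 1, 151 without replicate 2 and 394 without replicate 3 of that group, and 94, 75 and 3634 without Vehicle 2h replicates 1, 2 and 4. A core of 53 probe sets, 50 lower for 40 genes and 3 higher for 2 genes, was called without any 1 of the 8 arrays, under each scaling and offset, with a trended prior and with all 48 arrays in the blocked fit.

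All probe sets drifted with brightness, most in the replicate 1 pair. With the probe sets sorted by mean signal into 10 equal bins, numbered from dimmest to brightest, the median log2 differences of that pair were −0.28 and −0.29 in bins 7 and 8 and 0.17 and 0.16 in bins 2 and 3. In the replicate 4 pair all 10 medians lay between −0.06 and −0.01. Falling calls were densest in bins 6, 7 and 8, with 224, 251 and 211, and 17 lay in the brightest bin. The shares of all genes set beside gene lists below are not matched for signal level. The plot of median differences by signal level sets the 4 pairs above the counts of calls.

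**Figure D1:**
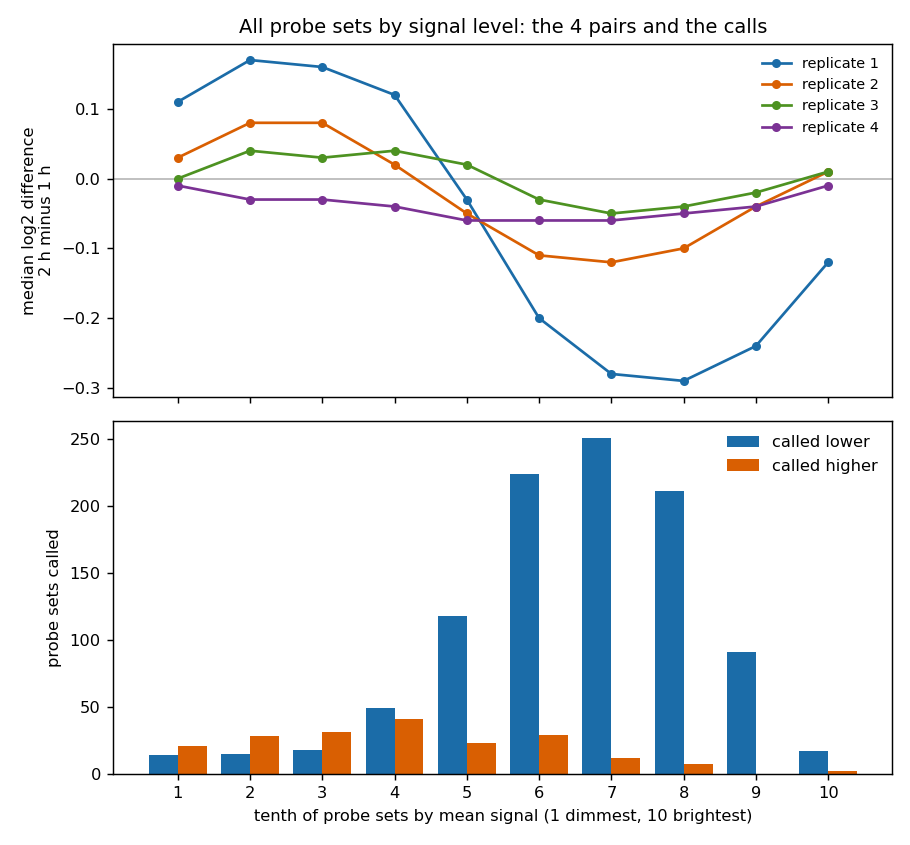
All 41091 probe sets in 10 equal bins of mean signal over the vehicle arrays, from dimmest to brightest. The upper panel gives the median log2 difference of each replicate pair, 2 h minus 1 h, and the lower panel the number of probe sets called lower and higher. The replicate 1 pair departs furthest from 0, to −0.29 in bin 8, where 211 probe sets were called lower.

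EGR1 encodes a zinc finger factor that growth factors induce. The signal of its brightest probe set at 1 h was 4272, 5012, 4888 and 4767 in replicates 1 to 4, and at 2 h it was 2000, 1698, 1487 and 1472. Every array at 2 h lay below every array at 1 h. The log2 difference was −1.51 ± 0.13 (SE; limma adjusted p = 0.0005, and 0.000727 without the block). The other EGR1 probe sets gave −2.02 ± 0.12 and −1.81 ± 0.12. EGR1 stayed low at 6 h (mean 1388) and was at 2024 at 18 h, a rise of 0.53 from 6 h (limma adjusted p = 0.0174).

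FOS encodes the partner of JUN in AP-1. Its signal at 1 h was 287, 232, 340 and 146, and at 2 h it was 87.2, 61.4, 87.5 and 34.3. Replicate 4 was lowest at both times, and the groups did not overlap. The log2 difference was −1.68 ± 0.13 (limma adjusted p = 0.000122). Without the block the adjusted p was 0.0974. FOSB, a relative of FOS, was dim and fell as well, from 73.2, 84.5, 75.2 and 104 to 47.6, 47.5, 18.8 and 38.2 (−0.92 ± 0.19, limma adjusted p = 0.0295). Of the 8 fits that left out 1 array, FOSB kept its call only in that without Vehicle 2h replicate 4. FOSB went on to 13.6 at 6 h and 9.42 at 18 h.

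JUN, the other AP-1 subunit, had a signal of 4261, 4594, 3446 and 5237 at 1 h and of 3468, 3139, 1953 and 2556 at 2 h. Its replicate 3 was lowest at both times, and the Vehicle 2h replicate 1 array lay just above the Vehicle 1h replicate 3 array, so the groups overlapped, but each pair fell. The log2 difference of this brightest probe set was −0.67 ± 0.10 (limma adjusted p = 0.0114, and 0.196 without the block). The 3 dimmer JUN probe sets gave −0.98 ± 0.11, −0.91 ± 0.10 and −0.82 ± 0.08, and all 4 belong to the core.

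IER2, an immediate early nuclear protein, had some of the tightest values. Its signal was 3834, 3764, 3624 and 4225 at 1 h and 2520, 2430, 2383 and 2097 at 2 h, with no overlap. The log2 difference was −0.71 ± 0.08 (limma adjusted p = 0.00329, and 0.0114 without the block). IER2 differed by a further −0.13 between 2 and 6 h and by −0.22 between 6 and 18 h, neither past the threshold.

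**Figure D2:**
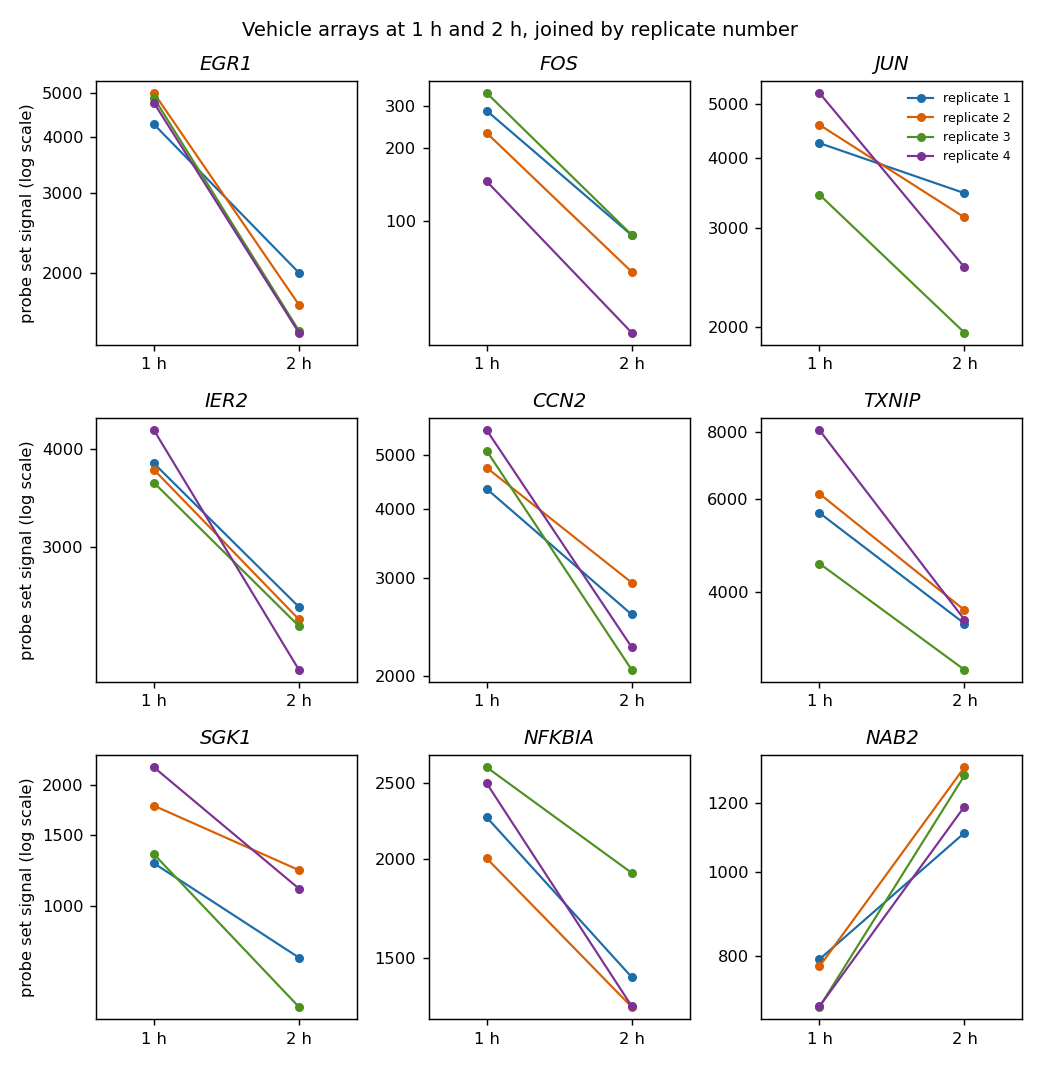
Signal of the brightest probe set of 9 genes in the 8 vehicle arrays, on a log scale, with lines joining arrays of 1 replicate number. All 4 lines fall for 8 genes, EGR1 from between 4272 and 5012 to between 1472 and 2000, and all 4 rise for NAB2, from between 700.0 and 794 to between 1109 and 1319.

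Across the list of 35 measured immediate early transcription factors, 11 fell and none rose, against 2.19% of all genes that fell. Besides EGR1, FOS, FOSB, JUN and IER2 these were NR4A1, KLF2, ATF3, ID1, NR4A2 and JUNB, and the median over the list was −0.31. Only 5 of the list fell without Vehicle 1h replicate 1, 7 without replicate 2 or 3, and 6, 6 and 7 without Vehicle 2h replicates 1, 2 and 3. The count was 6 with 75th percentile centring, 9 after quantile normalization and 2 without the block. By brightest probe sets, EGR1, IER2 and CCN2 were the only list members called without the block, and CDKN2B, of the cell cycle inhibitor list, was called in a dimmer probe set. NR4A1, an orphan nuclear receptor, had its signal at 288, 257, 244 and 247 at 1 h and at 192, 199, 111 and 121 at 2 h, with no overlap. That is a log2 difference of −0.72 ± 0.12 (limma adjusted p = 0.0178), and its other called probe set gave −0.96 ± 0.12. A dimmer NR4A1 probe set gave 0.04 ± 0.10. KLF2, a zinc finger factor known from flow-exposed cells, went from 2326, 2251, 2087 and 2579 to 1687, 1701, 1197 and 1772, again without overlap (−0.55 ± 0.09, limma adjusted p = 0.0177).

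ATF3, a stress-induced factor, was highest in replicate 1 and fell in every pair, from 3253, 1193, 762 and 1299 to 2422, 900.0, 557 and 770.0. The groups overlapped, and the log2 difference was −0.50 ± 0.08 (limma adjusted p = 0.0114, and 0.729 without the block). ID1, an inhibitor of helix-loop-helix factors downstream of BMP, ran from 360.0 to 4630 at 1 h and from 251 to 2950 at 2 h, with its highest values in replicate 3. It fell by 0.50 ± 0.11 (limma adjusted p = 0.036). JUNB fell by 0.38 ± 0.09 and NR4A2 by 0.43 ± 0.10 (limma adjusted p = 0.0419 and 0.0373).

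Other members lay near the threshold or far from it. MYC, the growth regulator, went from 3019, 2741, 4594 and 2775 to 2030, 2391, 2053 and 2118, without overlap, but its log2 difference of −0.58 ± 0.15 missed the threshold (limma adjusted p = 0.0531). So did IER3 at −0.71 ± 0.18 (limma adjusted p = 0.0549), MAFF at −0.64 ± 0.16 (0.0527) and HES1 at −0.75 ± 0.19 (0.0556). KLF4 differed by −0.32 ± 0.12, KLF6 by −0.12 ± 0.11, FOSL1 by −0.09 ± 0.13, KLF10 by −0.04 ± 0.12 and NR4A3 by −0.06 ± 0.12, and EGR3 by 0.32 ± 0.14 in the opposite direction. Dimmer NR4A3 probe sets gave −0.50 ± 0.18 and 0.11 ± 0.11 in vehicle, and differences from 1.13 to 1.36 in the treated arrays. By their brightest probe sets, the differences of FOSL1, KLF10 and NR4A3 turned positive with 75th percentile centring. EGR2 has no probe set with a single symbol and was not analysed here.

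Feedback inhibitors of the MAP kinases are induced by the pathway they switch off. Of 20 measured genes on their list, 4 fell and none rose, against 2.19% of all genes that fell. The list also holds the cytokines LIF and IL11 and the gene PHLDA1, which are not such inhibitors. The 4 were the Sprouty genes SPRY2 and SPRY1 and the phosphatases DUSP10 and DUSP16. DUSP10, which acts on JNK and p38, went from 295, 342, 430.0 and 383 to 204, 232, 288 and 231. Its groups did not overlap (−0.57 ± 0.08, limma adjusted p = 0.0063), and it is the only member of this list in the core. SPRY2 went from 1158, 1281, 1817 and 1162 to 833, 941, 978 and 816, also without overlap (−0.57 ± 0.11, limma adjusted p = 0.0273). DUSP6, a phosphatase for ERK, was at the threshold, with −0.74 ± 0.18 in its brightest probe set (limma adjusted p = 0.0501) and −0.79 ± 0.17 and −0.75 ± 0.18 in the others (0.0374 and 0.0487). DUSP1 was far brighter, with means of 8639 at 1 h and 7863 at 2 h, and differed by −0.15 ± 0.10. With 75th percentile centring or quantile normalization, 2 members of the list fell and 1 rose. The count of falls was 1 without Vehicle 1h replicate 1 or 2 or Vehicle 2h replicate 1 or 2, and 2 without Vehicle 1h replicate 3.

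CCN2 encodes a secreted matricellular protein and is a standard reporter of YAP activity and of stretch. Its signal was 4347, 4744, 5088 and 5544 at 1 h and 2583, 2948, 2054 and 2256 at 2 h. The groups were far apart, with a log2 difference of −1.01 ± 0.12 (limma adjusted p = 0.00417, and 0.0265 without the block). It was the 1 called gene of 20 measured on the list of serum response factor, actin and YAP targets, whose median was −0.03. Of all genes, 2.19% fell. CCN1, its close relative, was at 11099, 11902, 10500.0 and 11755 at 1 h and at 11101, 10369, 8037 and 10074 at 2 h. Those groups overlapped (−0.20 ± 0.07, limma adjusted p = 0.114), while a dimmer CCN1 probe set gave −0.34 ± 0.08 (0.0497). ANKRD1, another YAP target, differed by −0.17 ± 0.11 and ACTB by −0.03 ± 0.06. CCN2 came back to 3790 at 18 h, a rise of 0.89 from 6 h (limma adjusted p = 0.00077).

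RHOB encodes a small GTPase whose mRNA and protein turn over fast. Its signal went from 1884, 1581, 2938 and 1684 to 1063, 1043, 1487 and 846, with no overlap (−0.84 ± 0.11, limma adjusted p = 0.00529, and 0.134 without the block). Its next brightest probe set gave −0.91 ± 0.11. BCL6, a transcriptional repressor, was the other of 24 measured fast-turnover genes that fell, against 2.19% of all genes. Of the 24, 22 lay above the 40th percentile of signal level, and that share is not matched for level. BCL6 fell by 0.47 ± 0.07 (limma adjusted p = 0.013) in the brightest probe set and by 0.67 ± 0.08 in another. No UBB, MCL1 or ODC1 change passed the threshold, with differences of −0.06, −0.12 and −0.00 from their brightest probe sets.

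NFKBIA, the inhibitor that resets NF-kB, went from 2260.0, 2006, 2613 and 2494 to 1421, 1303, 1923 and 1306. The groups did not overlap, and the log2 difference was −0.66 ± 0.08 (limma adjusted p = 0.00529, and 0.117 without the block). NFKBIZ fell by 0.40 ± 0.09 (limma adjusted p = 0.0378), and the other 11 measured NF-kB feedback genes did not pass, where 2.19% of all genes fell. TNFAIP3 differed by −0.56 ± 0.16 (0.068), while its dimmer probe set fell by 0.57 ± 0.12 (0.0305). NFKBIA alone of this list was called in 7 of the fits that left out 1 array, and 4 genes were called without Vehicle 2h replicate 4. Among 20 measured cytokines, chemokines and adhesion molecules, 3 fell, against 2.19% of all genes. TSLP fell by 0.51 ± 0.13, the cyclooxygenase PTGS2 by 0.48 ± 0.11 and IL15 by 0.41 ± 0.07. None of the list was called without Vehicle 1h replicate 1 or 2 or Vehicle 2h replicate 1 or 2, 1 was without Vehicle 1h replicate 3 or 4, and 2 without Vehicle 2h replicate 3. IL6 differed by −0.41 ± 0.21 (limma adjusted p = 0.253), CXCL8 by −0.20 ± 0.13 and CXCL2 by 0.17 ± 0.09. The CXCL2 probe sets disagreed, as another of similar signal gave −0.59 ± 0.16 (limma adjusted p = 0.0664) and a dimmer one −0.02 ± 0.09.

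TXNIP encodes an arrestin-like protein that blocks glucose uptake and is itself induced by glucose through the MondoA and MLX factors. Its signal was 5637, 6125, 4527 and 8069 at 1 h and 3490.0, 3700.0, 2856 and 3550.0 at 2 h. Replicate 3 was lowest at both times and the groups did not overlap. The log2 difference was −0.81 ± 0.10 (limma adjusted p = 0.00457, and 0.101 without the block), and the other probe sets gave −1.01 ± 0.13 and −0.94 ± 0.12. ARRDC4, the related arrestin under the same control, fell by 0.46 ± 0.08 (limma adjusted p = 0.0167). The other 14 measured members of that list did not pass, with SLC2A1 at 0.06 ± 0.08 and HK2 at −0.19 ± 0.14, where 2.19% of all genes fell. Without Vehicle 1h replicate 2 or Vehicle 2h replicate 1 or 2, 1 of the list was called. TXNIP was at 4729 at 6 h and 6875 at 18 h, and the later step of 0.56 passed (limma adjusted p = 0.00322). ARRDC4 rose by 0.85 over the same step (limma adjusted p = 8.93e-05).

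SGK1, a kinase induced by serum, glucocorticoids and osmotic stress, went from 1278, 1775, 1346 and 2210.0 to 746, 1229, 563 and 1106. Only replicates 2 and 4 were above 1000 at 2 h, and none reached the lowest array at 1 h (−0.88 ± 0.12, limma adjusted p = 0.0066, and 0.196 without the block). RGS2, a regulator of G protein signalling that both cAMP and glucocorticoid raise, went from 2081, 1554, 1117 and 1720.0 to 1261, 1260.0, 757 and 1082. The groups overlapped, but each pair fell (−0.56 ± 0.08, limma adjusted p = 0.00757). With NFKBIA these made 3 of 16 glucocorticoid-inducible genes that fell, against 2.19% of all genes. Their count was 3 without any 1 of the 8 arrays. FKBP5 and TSC22D3, more specific reporters of the glucocorticoid receptor, differed by 0.03 ± 0.06 and 0.09 ± 0.09.

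Of 17 measured cAMP-CREB targets, 6 fell and none rose, against 2.19% of all genes that fell and 0.561% that rose. The 6 were FOSB, NR4A1, RGS2, NR4A2, CRTC2 and PDE4A. The count ranged from 1 without Vehicle 1h replicate 1 to 6 without Vehicle 2h replicate 4, with 2 without Vehicle 2h replicate 1 or 2, 3 without Vehicle 1h replicate 2 or 3, and 4 without Vehicle 2h replicate 3. CREM, PDE4D and LINC00473 differed by −0.14 ± 0.05, 0.06 ± 0.10 and −0.06 ± 0.10. Among 18 integrated stress genes, ATF3, PPP1R15A and VLDLR fell, against 2.19% of all genes, while ATF4 (−0.08 ± 0.07) and DDIT3 (−0.18 ± 0.10) did not pass. The stress count was 1 without Vehicle 1h replicate 1 or 2 or Vehicle 2h replicate 1, 2 or 3. The lists share members, so their counts are not independent. FOSB, NR4A1, NR4A2 and ATF3 were also counted among the immediate early factors, and RGS2 among the glucocorticoid-inducible genes.

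**Figure D3:**
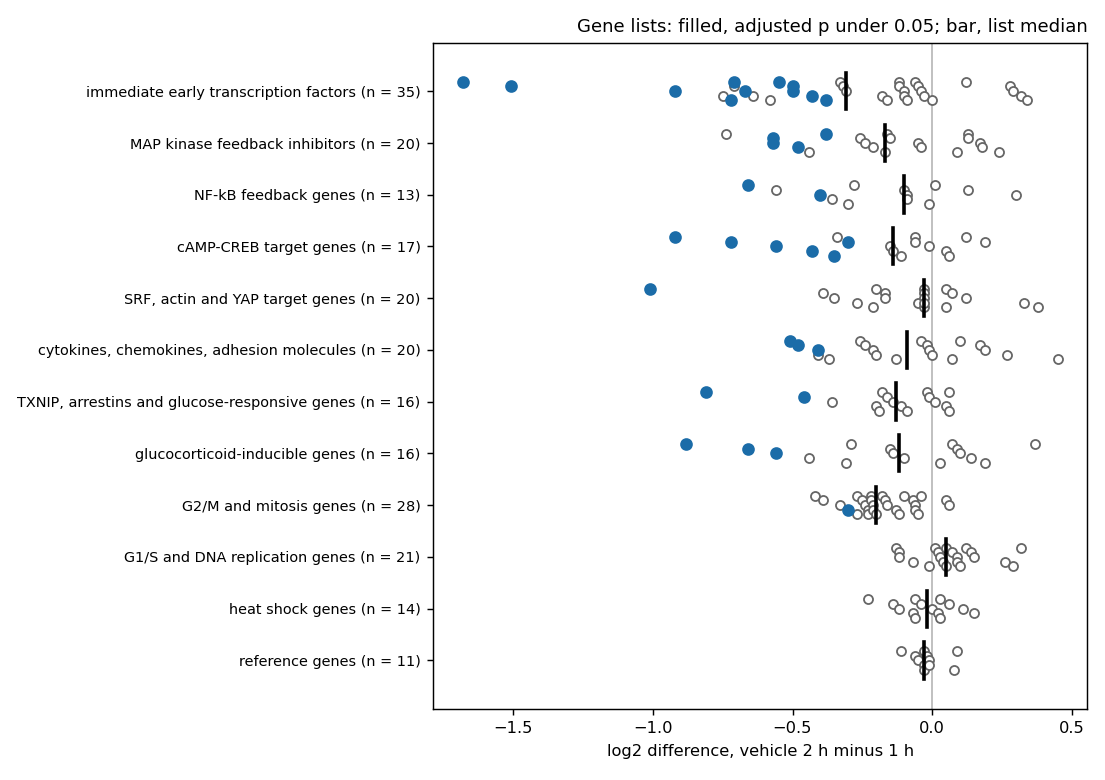
Log2 differences, 2 h minus 1 h in vehicle, of the measured members of 12 gene lists, by the brightest probe set of each gene. Filled points passed an adjusted p under 0.05 and bars are list medians. Filled points reach −1.68 among the immediate early factors, and no heat shock, G1/S or reference gene is filled.

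The remaining lists held few or no calls, where 2.19% of all genes fell and 0.561% rose. ERBB2, KDM3A, TP53INP1, CENPF and XRN1 were the single fallen members of the lists of growth factors and EGF receptor ligands, hypoxia, p53, G2/M and RNA-binding regulators, and ID1 and TGFB1 fell among TGF-beta and BMP genes. Each of these 7 lost its call in at least 5 of the 8 fits that left out 1 array. The dimmer CENPF probe sets gave −0.04 ± 0.14 and −0.51 ± 0.17, neither past the threshold. KDM3A, a hypoxia-induced histone demethylase, fell by 0.44 ± 0.08 (limma adjusted p = 0.0238) and then rose by 0.54 from 2 to 6 h (0.0371). Nothing passed among 14 heat shock genes (median −0.02), 21 G1/S genes (0.05), 26 interferon-stimulated genes (−0.04), 11 metallothionein and metal response genes (0.14) or 11 reference genes (−0.03). The unfolded protein, NRF2, cell cycle inhibitor, cholesterol synthesis, clock, Notch and WNT, ribosome biogenesis, histone, splicing and nuclear non-coding RNA lists, and the epithelial, ciliated, leukocyte and endothelial marker lists, had no called member either. Some of these had calls under other scalings, such as 3 ribosome biogenesis and 2 splicing genes that were higher with 75th percentile centring. AREG, HSPA1A and PER1 have no probe set with a single symbol and were not analysed here.

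Further genes of the core, picked here after their values were seen, lie outside these lists or outside the rule for named genes. MYLIP, the ubiquitin ligase for the LDL receptor, fell in 5 of its 6 probe sets, by 0.55 to 0.78, and 1 of these belongs to the core. The lysine demethylase KDM5B fell by 0.50 ± 0.07, smoothelin (SMTN) by 0.66 ± 0.07 and the zinc finger gene ZNF404 by 0.70 ± 0.06. The adaptor NEDD9 (−0.57 ± 0.08) and the kinase DGKA (−0.55 ± 0.08) fell in a probe set that is not their brightest, which gave −0.19 ± 0.09 and −0.29 ± 0.06. Some falls rest on a minor probe set. ZBTB24 fell by 1.00 ± 0.15 in a probe set with a mean of 280.0 at 1 h and 131 at 2 h, but its brightest probe set differed by 0.12 ± 0.09 and another fell by 0.40 ± 0.08. ACAT1 and KLF8 had falling probe sets at −0.80 ± 0.17 and −0.78 ± 0.19 whose brightest companions gave −0.07 ± 0.08 and 0.29 ± 0.13. PDCD4 fell by 0.76 ± 0.14 from a mean of 39.1 to 17.0, at the dim end of the scale.

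NAB2 was the clearest rise. Its signal was 794, 779, 700.0 and 701 at 1 h and 1109, 1319, 1291 and 1189 at 2 h. All 4 later arrays lay well above all 4 earlier ones, with a log2 difference of 0.71 ± 0.08 (limma adjusted p = 0.00401, and 0.0114 without the block). The second NAB2 probe set rose by 0.77 ± 0.10. At 6 h NAB2 was back at 733, a fall of 0.73 (limma adjusted p = 0.00893), and it stood at 689 at 18 h. NAB2 thus had its highest mean at 2 h, when EGR1 had already fallen.

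PPP1R10, a nuclear regulator of protein phosphatase 1, went the same way, from 1052, 1022, 899 and 739 to 1420.0, 1466, 1358 and 1556, and to 750.0 at 6 h. It rose by 0.65 ± 0.11 (limma adjusted p = 0.0192) and fell by 0.95 from 2 to 6 h (0.00893). The single-strand DNA binding gene NABP1 rose by 0.62 ± 0.11 and 0.64 ± 0.12 in its probe sets (limma adjusted p = 0.018 and 0.0207) and declined between 6 and 18 h, by 0.78 in the brightest (0.000843). PPP1R10 kept its call in 3 of 8 fits that left out 1 array and NABP1 in 5.

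Most of the other large rises came from dim probe sets. CALCRL, the receptor for calcitonin gene-related peptide and adrenomedullin, went from 67.8, 55.5, 71.0 and 63.4 to 154, 149, 103 and 179. Its groups did not overlap (0.99 ± 0.15, limma adjusted p = 0.00993), and it kept its call in 7 of 8 fits. The dimmer CALCRL probe sets gave 0.28 ± 0.13 and 0.30 ± 0.10, neither past the threshold. ANXA10 went from 27.0, 25.7, 29.7 and 46.9 to 106, 57.5, 52.6 and 70.7 (0.84 ± 0.18), and the long non-coding RNA UCA1 from 257, 205, 293 and 294 to 704, 468, 431 and 340.0 (0.82 ± 0.19). Both were highest in Vehicle 2h replicate 1, the array with the lowest 75th percentile, and neither passed without it (limma adjusted p = 0.136 and 0.164). TP53AIP1, a p53-induced mitochondrial protein, rose by 0.91 ± 0.21, also lost without that array (0.142). Its dimmer probe sets gave 0.42 ± 0.18, 0.07 ± 0.15 and 0.22 ± 0.13, none past the threshold. The largest called rise, SYN2 at 1.30 ± 0.30, came from a probe set with means of 29.0 and 90.6, and the brighter SYN2 probe set differed by 0.33 ± 0.17. SLC39A5, AJAP1, GNB1L, ZNF704 and ESR1 likewise rose in minor probe sets, by 0.66 to 0.86, while their brightest differed by 0.20, −0.01, −0.15, −0.01 and 0.44. LOC100289473 and UST-AS1 rose by 0.72 ± 0.15 and 0.67 ± 0.13 (limma adjusted p = 0.0298 and 0.0279). Without Vehicle 2h replicate 1 these 2 genes and the rising probe sets of SYN2, SLC39A5, AJAP1, GNB1L, ZNF704 and ESR1 all missed the threshold (limma adjusted p from 0.0558 for SLC39A5 to 0.174 for ZNF704). POSTN and PDGFRA, which are mesenchymal genes, rose by 0.55 ± 0.11 and 0.49 ± 0.12 (limma adjusted p = 0.0305 and 0.0489). Neither passed without Vehicle 2h replicate 1, and the summed signal of the fibroblast list ran from 24041 to 28220 at 1 h and from 24050 to 29090 at 2 h. In bulk RNA, more cells of a type and more RNA per cell cannot be told apart.

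The later vehicle arrays show where these levels went, and they share the 2 h arrays with the comparison above. EGR1, FOS, IER2, CCN2, JUN and NFKBIA differed from 2 to 6 h by −0.26, −0.21, −0.13, −0.27, −0.05 and 0.05, with no adjusted p under 0.05. FOS rose again by 0.65 from 6 to 18 h (limma adjusted p = 0.00471). NR4A1 continued down by 0.76 from 2 to 6 h (limma adjusted p = 0.0417). DUSP16 and IL15 rose late, by 0.63 and 0.59 from 6 to 18 h (limma adjusted p = 0.000206 and 0.00052), and TSLP by 0.67 (0.00402).

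**Figure D4:**
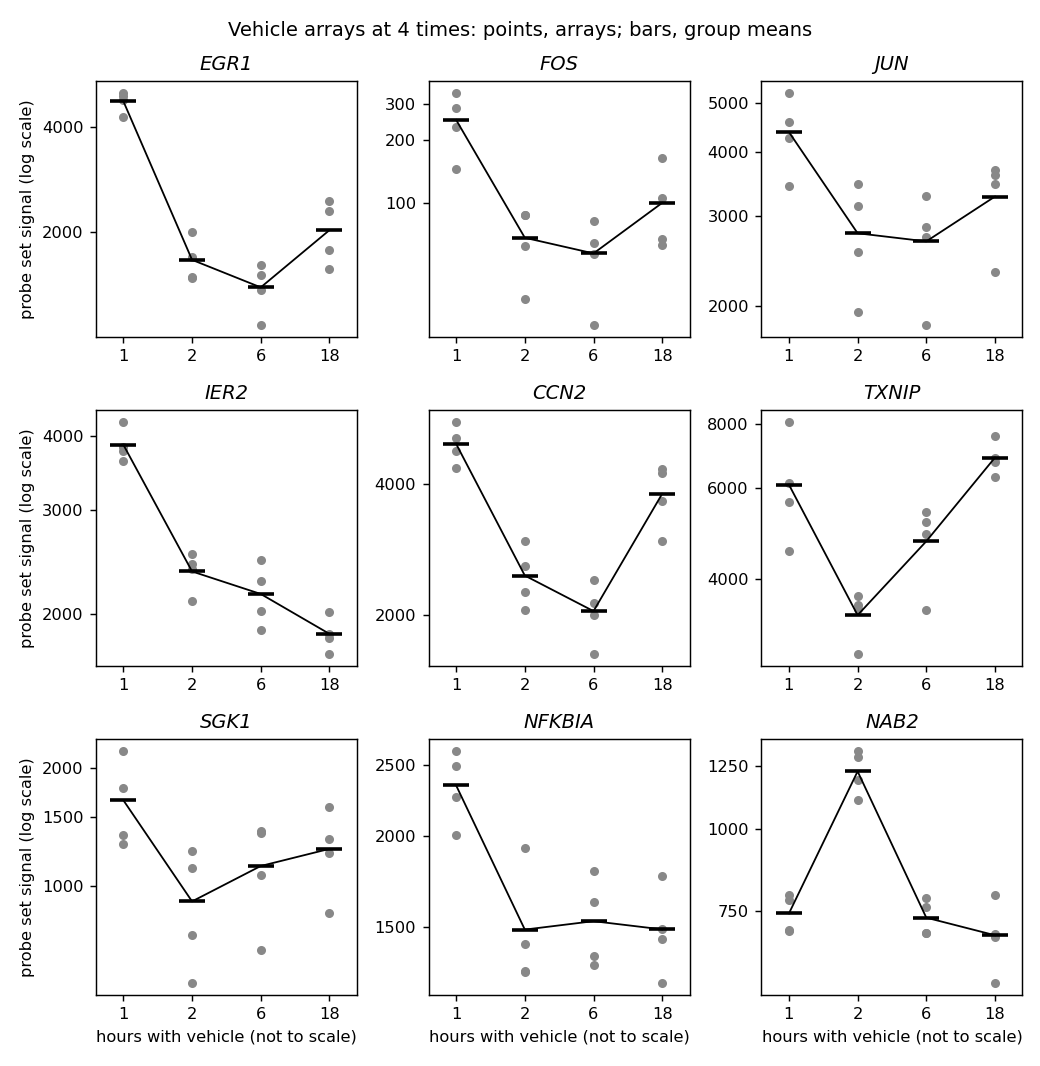
Signal of the same 9 genes at 1, 2, 6 and 18 h in vehicle, on a log scale, with points for arrays and bars for group means. EGR1 goes from a mean of 4735 at 1 h to 1664 at 2 h, and NAB2 has its highest mean, 1227, at 2 h.

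The same hour was measured in 16 drug-treated arrays that played no part in the vehicle calls, though they carry the same replicate numbers. Of the 1008 probe sets that fell in vehicle, 201 fell in Ind/GSK, where 1.32% of all probe sets fell, and 326 fell in GS-5759, where 2.65% did. In GS-5759 929 of them had a negative difference (92.2%, against 58.4% of all probe sets), and in Ind/GSK 816 did (81.0%, against 49.4%). The reverse call, a rise, was made for 11 and 9 of the 1008. Of the 194 that rose in vehicle, 7 rose in Ind/GSK and 6 in GS-5759, where 1.82% and 1.22% of all rose, and none fell. Without the block, 272 and 325 probe sets of all were called in the 2 treatments, in place of 1288 and 1588.

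Single genes of the core differed in how far the treated arrays followed. EGR1 had log2 differences of −2.43 in Ind/GSK and −2.40 in GS-5759, from means of 2996 and 3341 at 1 h to 560.0 and 644 at 2 h. FOS fell as well (−1.48 and −1.45), as did JUN (−0.82 in both), IER2 (−0.46 and −0.50), NFKBIA (−0.46 and −0.56) and SGK1 (−0.60 and −0.57), all past the threshold. NAB2 rose by 0.63 and 0.46. CCN2 differed by −0.28 and −0.33 (limma adjusted p = 0.793 and 0.697), but the difference from vehicle was itself not past the threshold (0.70 ± 0.31, adjusted p = 0.257). MYC, IER3 and DUSP6, which missed the threshold in vehicle, fell in both treatments, for example IER3 (−1.13 and −1.24). Of the 35 immediate early factors 13 fell in each treatment, where 1.69% (Ind/GSK) and 3.2% (GS-5759) of all genes fell by their brightest probe sets.

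**Figure D5:**
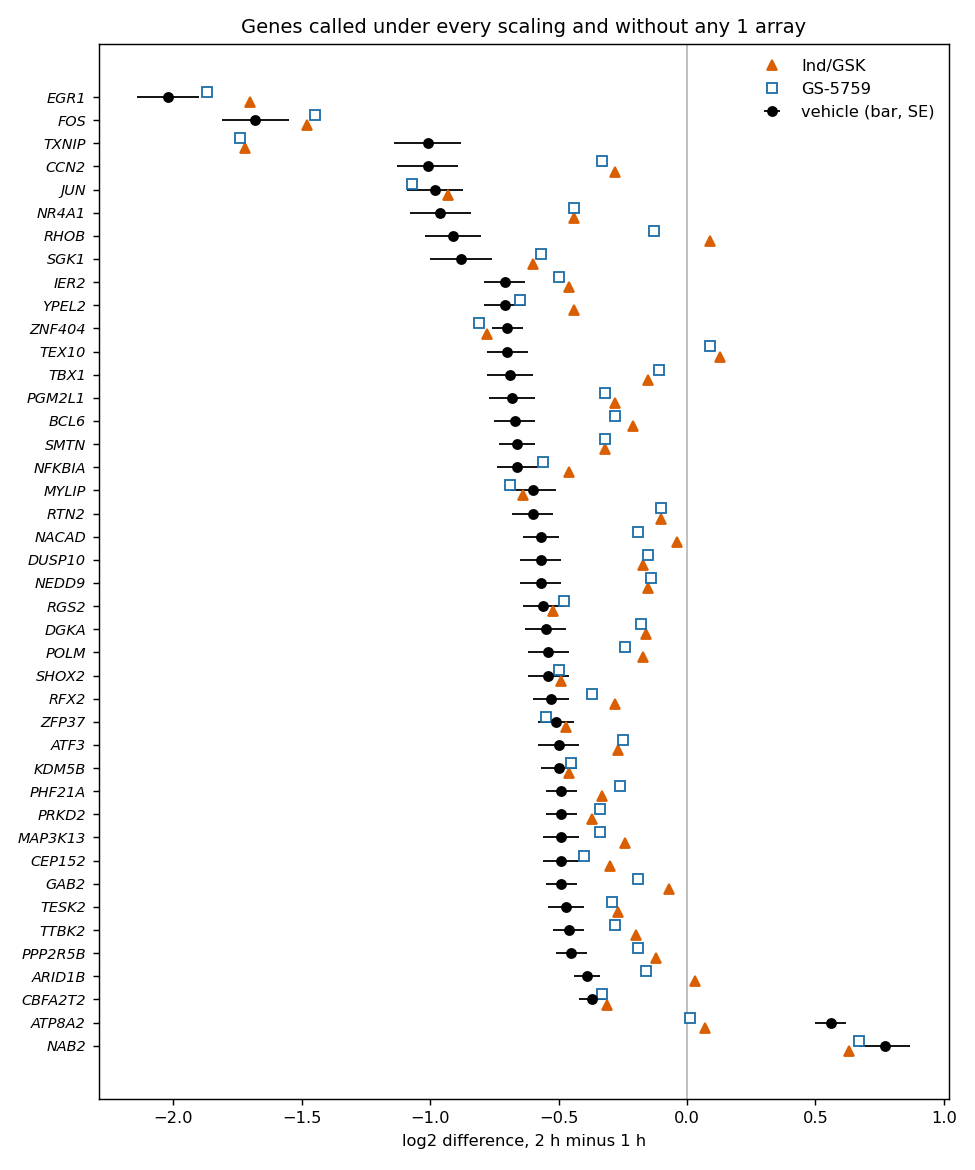
Log2 differences, 2 h minus 1 h, of the 42 genes of the core, by the core probe set with the largest difference. Black points are vehicle with SE, triangles Ind/GSK and squares GS-5759. Of the 40 genes that fell in vehicle, 37 lie below 0 in Ind/GSK and 39 in GS-5759.

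The change in treated cells minus that in vehicle, averaged over both treatments, was called for 677 of 41091 probe sets (1.65%), 574 higher and 103 lower (0.251%), and for 49 without the block. By brightest probe sets it was called for 279 genes (1.41%), 0.278% of all genes being lower. Without Vehicle 2h replicate 1 the count was 283. By the brightest probe sets, RHOB differed by 0.03 and −0.08 in treated cells, where it went from 2503 to 2548 with Ind/GSK and from 2892 to 2679 with GS-5759, and the difference of 0.82 ± 0.17 from vehicle passed (limma adjusted p = 0.00353, and 0.0138 without that array). IL15 rose by 0.55 and 0.46 with treatment where it fell in vehicle, a difference of 0.92 ± 0.15 (limma adjusted p = 0.000144, and 0.00145 without the array). TXNIP fell further with treatment (−1.58 and −1.68), a difference of −0.82 ± 0.15 (limma adjusted p = 0.00144, and 0.00748 without the array). The TXNIP probe set with the largest fall in vehicle gave −0.72 ± 0.20, which missed the threshold (limma adjusted p = 0.0526, and 0.188 without the array). For EGR1 the probe sets disagreed too. The brightest gave −0.91 ± 0.21 (limma adjusted p = 0.0111, and 0.0564 without the array), while the one with the largest fall in vehicle gave 0.23 ± 0.16 (0.506).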

How the data were processed

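RNA from BEAS-2B cells was hybridised to 48 Affymetrix U133 Plus 2.0 arrays, 4 replicates in each of 12 groups. The deposited values are linear intensity per probe set, and per the submitters' processing notes the tools were Affymetrix Expression Console and PLIER. Versions and any scaling between arrays are not given in the sources used here. Arrays have no read depth, so their number limits the precision. Values were taken as log2(intensity + 16), and no level filter was applied. In R 4.3.3, limma 3.58.1 was fitted to the 16 vehicle arrays with group means and the replicate number as a block, because the comparison is defined as matched by number. Benjamini-Hochberg adjustment ran over 41091 probe sets, and a call is an adjusted p under 0.05. Treated arrays and differences from vehicle came from a fit of all 48 arrays with the same block. The fit was tested on simulated data, where 41% of changes of 0.5 and 89% of changes of 1 (log2, 41091 probe sets) were recovered. The simulation drew independent normal noise around the fitted replicate block. It therefore tested neither the pairing nor the drift with brightness.

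Probe sets with several symbols (1801) or no symbol (11721) and 62 control probe sets were left out. A gene is given by its brightest probe set over the vehicle arrays. Named genes were the 15 largest called rises and 15 largest called falls with 1 sign in all 4 pairs, up to 4 called members of each list, and a set of early response genes given whether called or not. Genes outside this rule were chosen after their values were seen, among them list members given for contrast. The members and gene lists were chosen with earlier results of these data known. Promoters came from RefSeq on GRCh38.p14. Alternatives were the fit without the block, other arrays in the fit, other offsets, 75th percentile centring, quantile normalization, a level filter, 1 probe set per gene, a trended prior and leaving out arrays. The fits of all 48 arrays without the block, and the treated differences without Vehicle 2h replicate 1, were added after seeing the data. 1 control measurement is not reported here.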

Additional observations from a re-analysis of the deposited data

Results flagged for a closer look

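In 5 of 156 groups of 4 arrays, 1 array lay further from the other 3 than Dixon's 95% critical value allows, as chance does in about 1 in 20 groups. At 1 h these were AJAP1, with replicate 1 below the others (ratio 0.899), CXCL8, with replicate 3 above them (0.836), and TP53AIP1, with replicate 2 below them (0.841). At 2 h they were JUNB, with replicate 3 above the others (0.893), and KLF2, with replicate 3 below them (0.875).

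The change from 1 to 2 h differed between treated and vehicle cells by a limma test of the difference for 9 of 73 named genes, against 1.41% of all genes by brightest probe set. Many of the 73 were named for their change in vehicle, and the same vehicle arrays enter the difference. In 7 of the 9, all but EGR1 and TXNIP, the difference was opposite in sign to the vehicle change. It was more negative with treatment for CALCRL (−1.11, adjusted p = 0.0139), EGR1 (−0.91, 0.0111), TXNIP (−0.82, 0.00144), UCA1 (−0.74, 0.0259) and POSTN (−0.53, 0.0328). It was more positive for VLDLR (0.33, 0.0312), PDCD4 (0.77, 0.0361), RHOB (0.82, 0.00353) and IL15 (0.92, 0.000144). Without Vehicle 2h replicate 1, TXNIP, RHOB and IL15 kept their calls by limma (adjusted p = 0.00748, 0.0138 and 0.00145). The other 6 lost theirs, CALCRL at 0.0501, EGR1 at 0.0564, VLDLR at 0.0975, POSTN at 0.131, PDCD4 at 0.175 and UCA1 at 0.191.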

How the results depend on the processing

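The count of 1202 called probe sets (194 higher, 1008 lower) moved with nearly every choice, and the cause was not tested. It was 4247 (920 higher, 3327 lower) with all 48 arrays and the block, 5 (0 higher, 5 lower) with the 8 arrays alone, 2425 (358 and 2067) with an offset of 64, and 606 (401 and 205) with 75th percentile centring. Quantile normalization gave 566 (178 and 388), the level filter 3149 (355 and 2794), 1 probe set per gene 637 (130 and 507) and a trended prior 2116 (326 and 1790). Leaving out arrays or a replicate number gave 13 to 3634 calls, 0 to 1468 higher and 10 to 2166 lower.

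Without the replicate block 11 probe sets were called (1 higher, 10 lower; 5736 at an unadjusted p under 0.05), and 561 (385 lower) with all 48 arrays. The pairing is weak. Deviations from the group means of arrays with the same number correlated at 0.06, 0.48, 0.81 and 0.44 for replicates 1 to 4, and between different numbers at −0.68 to 0.55, so replicate 1 missed the minimum of 0.1. Without the block, calls fell to 272 in Ind/GSK and 325 in GS-5759, and to 28, 4 and 49 for the differences of Ind/GSK, GS-5759 and their mean from vehicle. Without Vehicle 2h replicate 1 those differences had 219, 109 and 283 calls.

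Over the named genes, 1351 alternative values kept direction and side of the threshold, 650 lost the call, 22 gained it and 32 changed sign. With 75th percentile centring the differences of AJAP1, ZNF704, ACAT1, FOSL1, KLF10, NR4A3 and HBEGF became 0.10, 0.10, 0.04, 0.01, 0.06, 0.04 and 0.10, and after quantile normalization those of ZNF704, FOSL1, KLF10 and HBEGF became 0.06, 0.01, 0.02 and 0.11. Leaving out arrays gave −0.14 to 0.11 for AJAP1, −0.04 to 0.03 for ZNF704, −0.15 to 0.08 for KLF10, −0.14 to 0.03 for NR4A3 and −0.07 to 0.11 for HBEGF. None of these 7 was called by its brightest probe set.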

Other observations

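Among G2/M and mitosis genes, 26 of 28 measured had a negative difference from 1 to 2 h in vehicle, against 54.1% of all genes, with a median of −0.20, but CENPF alone was called. All 28 lay above the 40th percentile of level, where the median differences of all probe sets ran from −0.12 to −0.01 in bins 5 to 10. With 75th percentile centring, which added 0.11 to every log2 difference, 0 of the 28 were called. In the treated arrays 18 of these genes fell with Ind/GSK and 19 with GS-5759, where 1.69% and 3.2% of all genes fell. The difference of the treated change from that in vehicle was called lower for 3 of them, and for 0.278% of all genes.

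Genes that rose in vehicle were dimmer and more often annotated as long non-coding RNA. By brightest probe sets, 25.2% of the genes called higher were so annotated in RefSeq, against 6.91% of those called lower and 13.4% of all. Their median log2 level was 6.82, against 9.02 and 8.28. Genes under 10 kb long made up 50% of the 24 that fell at least 1.5-fold and 55.6% of the 18 that rose as much, against 27.5% of all genes. No test was made of these shares.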
